A study of Mus musculus with 4 samples.

Results

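The smooth muscle and pericyte marker genes described here were 10 genes chosen by name, out of 22298 genes in the count table of fetal brown adipose tissue (BAT). They comprised Acta2, Tagln, Cnn1, Des, Myocd, Rgs5, Cspg4, Notch3, Kcnj8 and Pdgfrb, all of which were found by their Ensembl identifiers. Of these, 9 passed the filter on low counts and were tested, and Myocd did not pass. RNA-seq was carried out on BAT of fetuses at E18.5, of the strain given as C57BL/6 in the labels and as C57BL/6J in the methods of the study, and 2 libraries were made per group. The dams of the control group had been given sterilized tap water through pregnancy, and those of the fructose group water with 20% (w/v) fructose. The number of fetuses and litters behind each library is not given in the sources used here, so the p-values measure only the spread between these libraries. Ucp1, the uncoupling protein that defines brown fat, was at 9606 to 12420 CPM (the count relative to the TMM-normalized total of its library) in the 4 libraries. The labels give all fetuses as male. However, 4 genes of the Y chromosome (Eif2s3y, Ddx3y, Kdm5d and Uty) summed to 422 and 390 counts in the control libraries and to 0 counts in each fructose library, so the fructose libraries went against their label, and maternal diet and fetal sex cannot be told apart in any of the results.

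The libraries held between 18542897 and 23645147 counts. A gene with 0 counts could have a level of up to 0.127 to 0.162 CPM at these depths (a floor of 3 counts, for counting error alone). Sampling noise did not account for the difference between libraries of the same group (chi-square divided by its degrees of freedom was 13.1 for control and 8.45 for fructose). The share of counts from mitochondrially encoded genes was 5.89% to 6.49% in control and 10.8% to 11.2% in fructose. Across the 12888 genes tested, the log2 fold change rose with transcript length (Spearman's rho 0.50) and fell with GC content (rho -0.50). These are correlations across genes of 1 comparison, which share the same 4 libraries, and are given as a description. Values after removal of both trends from each library are therefore given beside the main results.

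Mural cells wrap the endothelial tube of blood vessels. Smooth muscle cells surround arteries and veins and contract through actin, myosin and their partner proteins, whereas pericytes sit on capillaries and are known by surface receptors and channels rather than by contractile proteins. Endothelial PDGF-B recruits mural cells through PDGFRB, Notch ligands act on them through NOTCH3, and the contractile genes are switched on by serum response factor (SRF) with its coactivator myocardin, at a DNA element called the CArG box. In brown fat, this vessel bed is dense, and cells of the vessel wall have been described among the precursors of adipocytes.

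RefSeq promoters of GRCm38.p6 were at hand for 7 of the 10 genes. The stretches of 150 bases before the start site are shown for Acta2, the one of the 10 genes with the highest level per length in control, and for Rgs5, the only one of the 10 genes whose difference between the groups was called. The Acta2 stretch lies at chr19:34255374-34255523 on the minus strand and the Rgs5 stretch at chr1:169655351-169655500 on the plus strand. Start sites here are those of RefSeq. The GENCODE span of Acta2, used for the gene positions below, reaches to 34255590 and so includes the stretch shown. Capitals mark the CArG box with at most 1 G or C in its A/T core and CATTCC, the core of the site bound by TEAD factors, on either strand.
Acta2: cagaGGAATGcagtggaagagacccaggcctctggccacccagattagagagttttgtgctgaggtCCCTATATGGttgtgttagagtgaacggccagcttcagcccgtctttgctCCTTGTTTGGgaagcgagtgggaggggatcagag
Rgs5: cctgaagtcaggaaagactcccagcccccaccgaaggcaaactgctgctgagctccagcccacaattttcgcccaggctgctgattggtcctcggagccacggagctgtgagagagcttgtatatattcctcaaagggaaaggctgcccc
In the 250 bases before its start site, Acta2 held 2 relaxed CArG boxes, starting at -84 and -34, and 1 CATTCC, starting at -146. None of the other 6 promoters, those of Cnn1, Des, Rgs5, Cspg4, Notch3 and Kcnj8, held either motif in this window. Of all 32851 promoters, 8.59% held the relaxed CArG box, 1.47% the CArG box without a G or C in its core, and 12.6% CATTCC. A match is a description of the letters, and these windows do not reach the more distant regulatory elements of the genes.

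Per length of exon, the 10 genes spanned a wide range of levels. In the control libraries, the mean level was 30.5 RPKM (CPM per kb of exon) for Acta2, 24.1 for Pdgfrb, 20.9 for Kcnj8, 14.7 for Des, 13.3 for Notch3, 12.6 for Tagln, 8.37 for Cspg4, 3.66 for Rgs5, 1.05 for Cnn1 and 0.0086 for Myocd. Notch3 and Tagln overlapped between the control libraries and cannot be ordered, and the other neighbours did not overlap. In fructose, Acta2 and Pdgfrb led as well, but Acta2, at 31.0 and 22.9 RPKM, overlapped with Pdgfrb, at 22.6 and 23.6 RPKM. Des, at 19.5 and 16.1 RPKM, and Kcnj8, at 16.7 and 18.6 RPKM, overlapped too. Receptor and channel genes of pericytes thus stood among the contractile genes in this order, and the genes of calponin and myocardin at the end of it.

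**Figure D1:**
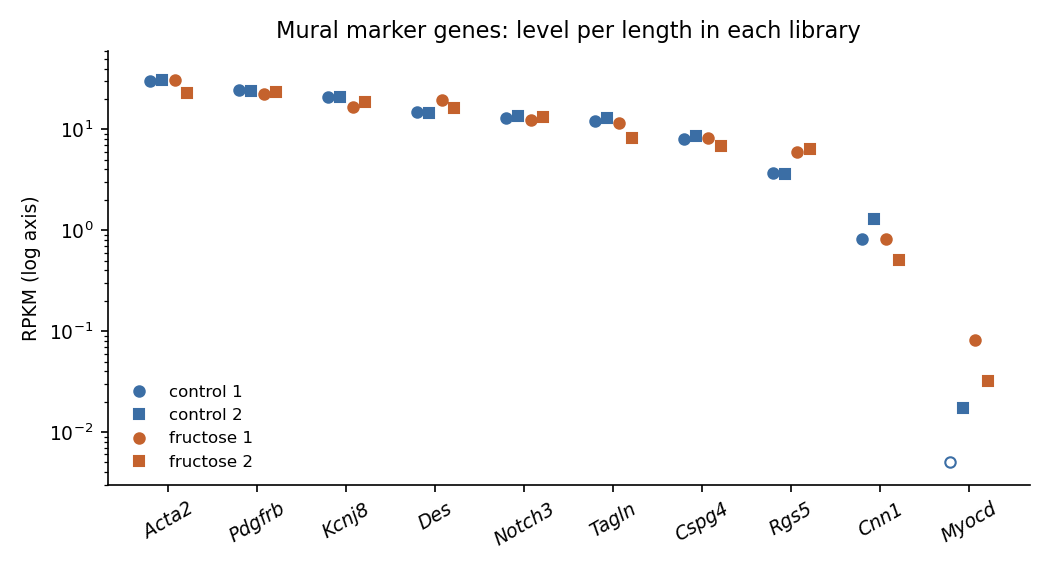
Level of each mural marker gene in RPKM on a log axis, with 1 point for each of the 2 control (blue) and 2 fructose (orange) libraries, ordered by the control mean. Acta2, at 22.9 to 31.0 RPKM, leads the list, the fructose points of Rgs5, at 5.96 and 6.35 RPKM, lie above its control points, at 3.70 and 3.61 RPKM, and the open point at the bottom stands for the 0 counts of Myocd in control library 1.

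The comparison of fructose with control asked how gene expression in fetal BAT differs with maternal fructose intake. Of the 9 genes tested, Rgs5 was higher in fructose and none was lower, by edgeR's quasi-likelihood test at a threshold of 0.05 on p-values adjusted over all genes tested, beside 15.5% of all tested genes called higher and 10.7% called lower. At an unadjusted p-value under 0.05 with a fold change above 1.3, the thresholds of the study's methods, Rgs5 was again the only call, beside 17.6% of all genes higher and 6.18% lower. DESeq2 called 1 higher and 0 lower as well, beside 1280 higher and 1084 lower of the 16360 genes it tested. At an unadjusted p-value under 0.05 in edgeR, 2 genes were higher (Des and Rgs5) and 2 lower (Tagln and Kcnj8). The share of all genes at this unadjusted threshold alone was not counted, so such counts, here and for the lists below, have no baseline. The median log2 fold change of the 9 genes was -0.15, against 0.0025 for all genes tested. Both fructose libraries lay above both control libraries for 2 of the 9 genes (Des and Rgs5) and below them for 3 (Tagln, Kcnj8 and Pdgfrb), beside 33.4% and 31.6% of all genes. In bulk tissue, fewer cells of a type and less RNA per cell cannot be told apart. With both trends removed, the count was still 1 gene higher and 0 lower, but the gene was Des and not Rgs5. Of all 12888 genes, 504 were called higher and 543 lower in that setting.

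**Figure D2:**
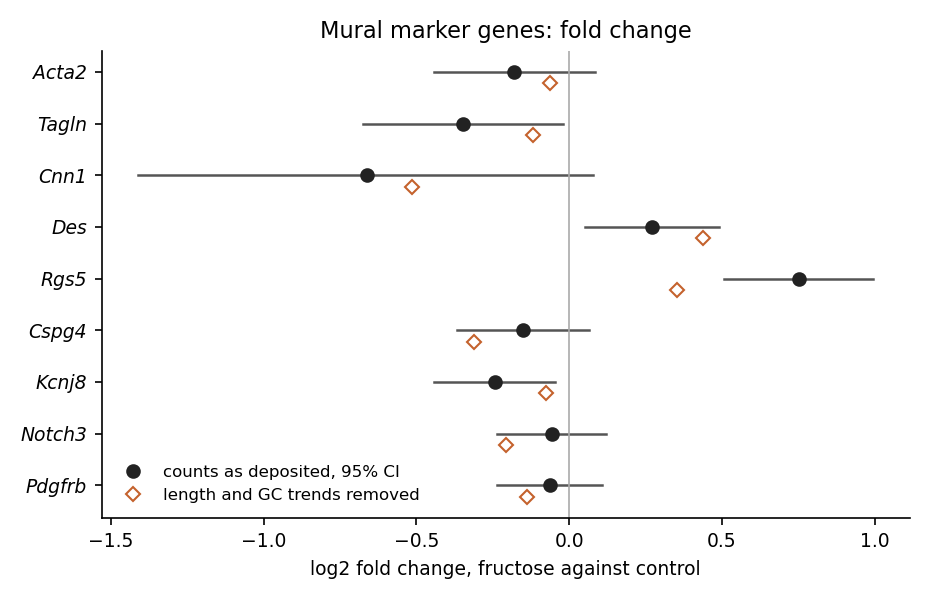
Log2 fold change of the 9 tested genes, fructose against control, as black points with 95% confidence intervals from edgeR's quasi-likelihood fit, and as open diamonds once both trends, with length and with GC content, were removed. Rgs5 stands to the right at 0.75 and moves to 0.35, whereas Des moves from 0.27 to 0.44 and the other 7 points lie at or below 0 in both processings.

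Among the contractile genes, Acta2 encodes smooth muscle alpha-actin and lies on chromosome 19 from 34241090 to 34255590. Its level was 66.8 and 67.3 CPM in the control libraries, and 68.1 and 50.4 CPM in the fructose libraries. The groups overlapped, since only fructose library 2 was low. The log2 fold change was -0.18 (95% confidence interval -0.44 to 0.08, adjusted p = 0.3 in edgeR's quasi-likelihood test), and it was 0.03 without fructose library 2 and -0.41 (edgeR adjusted p = 0.023) without fructose library 1. Tagln (chromosome 9, from 45929619 to 45936058) encodes the actin-binding protein transgelin. Its level was 24.2 and 25.9 CPM in control, and 23.0 and 16.4 CPM in fructose. Both fructose values were below both control values, and again fructose library 2 was the lowest. The log2 fold change of -0.35 (95% confidence interval -0.67 to -0.02) did not pass the adjusted threshold (edgeR adjusted p = 0.11), which it passed without control library 1 (-0.40, edgeR adjusted p = 0.02) or without fructose library 1 (-0.61, edgeR adjusted p = 0.0091). It was -0.12 without fructose library 2 (edgeR adjusted p = 0.7) and -0.12 with both trends removed (edgeR adjusted p = 0.67).

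Cnn1, which encodes calponin 1, an inhibitor of actomyosin in differentiated smooth muscle, lies on chromosome 9 from 22099216 to 22109630. It had only 42 and 64 counts in control and 51 and 34 counts in fructose, or 2.22, 3.55, 2.26 and 1.39 CPM. The groups overlapped, and the log2 fold change of -0.66 had a wide confidence interval (-1.41 to 0.08, edgeR adjusted p = 0.17). The value rested on single libraries. Without control library 1 it was called lower, at -0.97 (edgeR adjusted p = 0.027), without fructose library 1 it was -1.04 (edgeR adjusted p = 0.1), and it was -0.29 without control library 2 and -0.35 without fructose library 2 (edgeR adjusted p = 0.64 for each). The exons of Tagln share 1241 bases with Gm48529 and 108 bases with Pcsk7 on the opposite strand, and whether the counting used the strand is not given in the sources used here. Des shares 220 exon bases with Gm15179 and Notch3 488 with Gm17276, also on the opposite strand. Of the 50-base words of the longest transcript, on either strand, 48.3% also occurred in other genes for Tagln (Gm48529 and Pcsk7). The share was 5.81% for Des and 5.01% for Notch3. For Acta2 it was 0.352%, including the cytoplasmic actin Actg1, and for Cnn1 no word was shared.

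Des encodes desmin, the intermediate filament of muscle, and is shared by smooth muscle, pericytes and skeletal muscle. The gene lies on chromosome 1 from 75360329 to 75368579. Its level was 56.0 and 54.6 CPM in control, and 73.2 and 60.4 CPM in fructose. Both fructose values were above both control values, with fructose library 1 the highest. The log2 fold change was 0.27 (standard error 0.10, 95% confidence interval 0.05 to 0.49) and was not called by edgeR's quasi-likelihood test (adjusted p = 0.066). Des was the member whose call depended most on the processing. It was called higher with both trends removed (0.44, edgeR adjusted p = 0.019), with only GC content corrected (0.42, edgeR adjusted p = 0.013), when scaled by library size only (0.33, edgeR adjusted p = 0.028), without a filter on low counts (0.28, edgeR adjusted p = 0.037), without control library 1 (0.29, edgeR adjusted p = 0.031) and without fructose library 2 (0.41, edgeR adjusted p = 0.024). Without fructose library 1, it was 0.13.

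Skeletal muscle markers were measured beside Des. That list holds sarcomere, calcium release and fast fibre genes, and also Tnnt1, Mb, Myog and Chrna1. Of its 19 tested genes, 18 were called higher in fructose and none lower, beside 15.5% and 10.7% of all genes tested. Their median log2 fold change was 1.39. At an unadjusted p-value under 0.05 the counts in edgeR were the same, 18 higher and 0 lower. After removal of both trends, 14 were called higher and 0 lower. Their summed level was 331.7 and 442.1 CPM in control, and 986 and 776.5 CPM in fructose, with fructose library 1 again the highest. Acta1, skeletal muscle alpha-actin, was higher by 1.15 on the log2 scale (standard error 0.18, edgeR adjusted p = 0.0013), and the largest value in the list was that of Myh3, embryonic myosin heavy chain, at 2.13 (standard error 0.30, edgeR adjusted p = 0.00085). The ratio of Des to Acta1 (both in RPKM) was 0.242 and 0.167 in control, and 0.0981 and 0.123 in fructose. The ratio of Des to Acta2 was 0.491 and 0.474 in control, and 0.628 and 0.701 in fructose. Des was thus higher relative to the smooth muscle actin and lower relative to the skeletal muscle actin in both fructose libraries. What part of the Des counts came from muscle fibres was not tested.

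Myocd, the gene of the coactivator myocardin on chromosome 11 from 65176561 to 65269989, was almost undetected. It had 0 and 2 counts in control, and 12 and 5 counts in fructose. Over the summed libraries, fructose was 6.96 times control (95% interval 1.65 to 62.1, exact, for counting error only), which compares these libraries and not the diets. Myocardin is also made by heart muscle. Of the 10 cardiac markers, Nppb and Nkx2-5 were at 0 in all libraries, and Nppa, Myl7, Tnni3 and Myh6 had at most 5 counts in any library. The 3 cardiac markers tested (Actc1, Tnnt2 and Myl4, all of which fetal skeletal muscle makes as well) were called higher, but only Actc1 was called with both trends removed, by DESeq2 or without fructose library 1. Tnnt2 was not called without control library 2 either (1.27), nor Myl4 without control library 1 (0.36).

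SRF, the DNA-binding partner of myocardin, and the related coactivator Mrtfa were not called (Srf -0.17, edgeR adjusted p = 0.29, and Mrtfa -0.06, edgeR adjusted p = 0.76). The other coactivator of this family, Mrtfb, was higher, with a log2 fold change of 0.41 (SE 0.11, edgeR adjusted p = 0.019), although not with both trends removed (0.07, edgeR adjusted p = 0.73) or by DESeq2 (adjusted p = 0.061). Tead1, a TEAD factor that binds CATTCC elements such as the one shown in the Acta2 promoter, was at 17.3 and 23.1 CPM in control, and at 36.9 and 44.1 CPM in fructose. Its log2 fold change was 1.01 (standard error 0.14, edgeR adjusted p = 0.00073), and 0.52 with both trends removed (edgeR adjusted p = 0.041). Csrp2, a LIM protein of smooth muscle, was lower (-0.33, standard error 0.08, edgeR adjusted p = 0.011), and was not called with both trends removed (-0.04, edgeR adjusted p = 0.81) or without fructose library 1 (-0.30, edgeR adjusted p = 0.091). Without fructose library 2, Mrtfb was not called either (0.28, edgeR adjusted p = 0.24). Among 11 tested genes of this list, 2 were called higher and 1 lower, with a median of 0.03, beside 15.5% and 10.7% of all genes tested.

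Rgs5, a regulator of G protein signalling and a widely used pericyte marker, lies on chromosome 1 from 169655501 to 169695813. Its level was 16.8 and 16.4 CPM in control, and 27.1 and 28.9 CPM in fructose. The groups were apart compared with the spread within each. It was 1.68-fold higher in fructose, with a log2 fold change of 0.75 (standard error 0.11, 95% confidence interval 0.51 to 0.995, edgeR adjusted p = 0.0011), and between 0.71 and 0.80 with each library left out in turn. Rgs5 also had the lowest GC content of the 10 genes, at 41.1% of its longest transcript, which is at the 9th percentile of the tested genes. With the GC content trend removed, the log2 fold change was 0.31 (edgeR adjusted p = 0.077), and with both trends removed 0.35 (edgeR adjusted p = 0.068), so the direction stayed and the call was lost.

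Cspg4, which encodes the proteoglycan NG2 on the surface of pericytes, lies on chromosome 9 from 56865033 to 56899870. Its level was 96.6 and 103 CPM in control, and 98.6 and 81.2 CPM in fructose. The groups overlapped, with fructose library 2 the lowest, as for Acta2 and Tagln. The log2 fold change was -0.15 (95% confidence interval -0.37 to 0.06, edgeR adjusted p = 0.28). With the transcript length trend alone removed it was called lower (-0.56, edgeR adjusted p = 0.0043), but with the GC content trend alone removed it was 0.04 (edgeR adjusted p = 0.8), and Cspg4 is at the 95th percentile of length and the 94th percentile of GC content among the tested genes.

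Kcnj8 encodes Kir6.1, the pore of the ATP-sensitive potassium channel of mural cells, and lies on chromosome 6 from 142564837 to 142571614. Its level was 53.0 and 53.6 CPM in control, and 42.5 and 47.4 CPM in fructose. Both fructose values were below both control values. The log2 fold change of -0.24 (95% confidence interval -0.44 to -0.05) did not pass the adjusted threshold of edgeR's quasi-likelihood test (adjusted p = 0.067), and it was -0.08 with both trends removed (edgeR adjusted p = 0.68). Its partner Abcc9, which encodes the regulatory subunit SUR2 of the same channel, rose, from 38.1 and 37.4 CPM in control to 55.6 and 61.8 CPM in fructose (log2 fold change 0.64, standard error 0.09, edgeR adjusted p = 0.00092). The ratio of Abcc9 to Kcnj8 (both in RPKM) was 0.219 and 0.213 in control, and 0.398 and 0.396 in fructose, so the libraries of a group were close and the groups were apart. The pairs of genes set in ratio were chosen after their values were seen, and an exact permutation test of such a ratio over 2 libraries against 2 cannot go below p = 0.333. With both trends removed, Abcc9 was no longer called (0.245, edgeR adjusted p = 0.11). The other subunits, Kcnj11 and Abcc8, had at most 42 and 11 counts in any library. Kcnj11 was tested and was not called (log2 fold change 1.39, edgeR adjusted p = 0.076), but it was higher at the thresholds of the study's methods. With both trends removed it was at 1.55 (edgeR adjusted p = 0.096). What part of the Abcc9 and Kcnj11 counts came from muscle fibres was not tested.

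**Figure D3:**
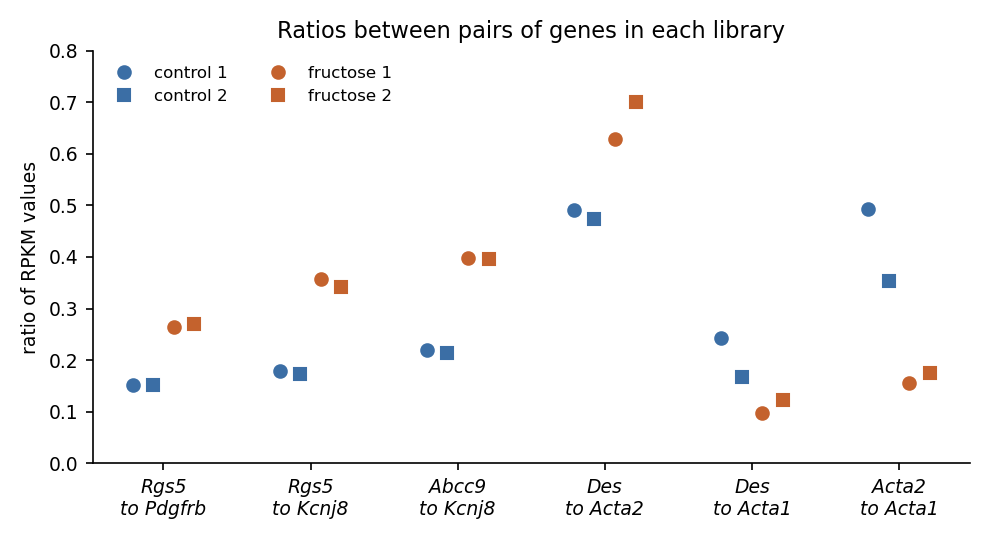
Ratio of the RPKM values of 6 pairs of genes in each library, control in blue and fructose in orange, on a linear axis from 0. The ratios of Rgs5 to Pdgfrb, Rgs5 to Kcnj8, Abcc9 to Kcnj8 and Des to Acta2 are higher in both fructose libraries, and those of Des to Acta1 and Acta2 to Acta1 are lower. The trends with length and GC content were not removed from these values.

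Of the receptors, Pdgfrb encodes the PDGF receptor beta, through which endothelial cells recruit pericytes, and lies on chromosome 18 from 61045150 to 61085061. Its level was 133 and 131.3 CPM in control, and 124 and 129 CPM in fructose. Both fructose values were slightly below both control values. The log2 fold change was -0.06 (95% confidence interval -0.24 to 0.11, edgeR adjusted p = 0.58). Its main ligand, Pdgfb, was at 65.1 and 56.3 CPM in control, and 56.6 and 52.1 CPM in fructose, and was not called (-0.16, edgeR adjusted p = 0.24). Among the 4 PDGF ligands and the alpha receptor, all of which were tested, Pdgfd, another ligand of this receptor, was the only call, with 26 and 16 counts in control and 58 and 68 in fructose (log2 fold change 1.23, standard error 0.33, edgeR adjusted p = 0.018). Pdgfd has a GC content of 39.9%, and it was not called with both trends removed (0.84, edgeR adjusted p = 0.13) or by DESeq2 (adjusted p = 0.08), nor without control library 2 (0.96, edgeR adjusted p = 0.069) or fructose library 2 (1.18, edgeR adjusted p = 0.1). The ratio of Rgs5 to Pdgfrb (both in RPKM) was 0.152 and 0.151 in control, and 0.264 and 0.269 in fructose, so the libraries of a group were again close. These ratios were taken without removal of either trend, and the 2 genes are at the 9th and 76th percentile of GC content. With the GC content trend removed, the log2 fold change was 0.31 for Rgs5 (edgeR adjusted p = 0.077) and 0.06 for Pdgfrb (edgeR adjusted p = 0.66).

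Notch3 encodes the Notch receptor of mural cells and lies on chromosome 17 from 32120820 to 32166852. Its level was 105 and 109.5 CPM in control, and 99.6 and 106.5 CPM in fructose. The groups overlapped, and the log2 fold change was -0.06 (95% confidence interval -0.24 to 0.12, edgeR adjusted p = 0.64). With the transcript length trend removed it was called lower (-0.46, edgeR adjusted p = 0.0034), and with the trend in GC content removed it was 0.15 (edgeR adjusted p = 0.27). Among 14 tested genes of the Notch pathway, none was called in either direction by edgeR or by DESeq2, against 1 higher and 1 lower at an unadjusted p-value under 0.05 in edgeR, and the median log2 fold change was 0.055. With the length trend removed, 4 were called lower (Dll4, Notch1, Notch4 and Maml1), with the GC content trend removed, 2 were called higher (Notch1 and Notch2), and with both removed none was called. Heyl, a target of Notch3 in mural cells, was at 39.7 and 44.9 CPM in control, and at 39.2 and 36.7 CPM in fructose (-0.16, edgeR adjusted p = 0.26). Jag1, a ligand of mural Notch, was at 13.2 and 14.3 CPM in control, and at 13.97 and 18.7 CPM in fructose (0.26, edgeR adjusted p = 0.25), and the endothelial ligand Dll4 was at 51.9 and 40.2 CPM in control, and at 36.7 and 37.1 CPM in fructose (-0.32, edgeR adjusted p = 0.062).

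Other genes of the mural cells were split in direction. For 19 tested smooth muscle genes outside the 10, from a list that goes beyond the contractile apparatus, the median was 0.295. Of these 19, 7 were called higher and 2 lower, beside 15.5% and 10.7% of all genes tested. The higher ones were Tpm1, Tpm2, Cald1, Mylk, Ppp1r12b, Synpo2 and Vcl, from 0.30 for Vcl to 0.81 for Synpo2 (edgeR adjusted p = 0.013). Of these, only the tropomyosins Tpm1 (0.44) and Tpm2 (0.77) were called with both trends removed, at 0.50 (edgeR adjusted p = 0.0072) and 0.98 (edgeR adjusted p = 0.0041). Cald1 was at the threshold there (0.36, edgeR adjusted p = 0.05), and passed it with the replicate number as a block as well (0.365, edgeR adjusted p = 0.04). The tropomyosins are made by skeletal muscle as well, and what part of the other genes' counts came from muscle fibres was not tested. The lower ones were Csrp1 (-0.30, edgeR adjusted p = 0.023) and Ppp1r14a (-0.77, edgeR adjusted p = 0.019), an inhibitor of myosin phosphatase. Single libraries decided several of these calls, which were lost for Vcl (0.24) and Ppp1r14a (-0.50) without control library 1, for Mylk (0.42) and Vcl (0.20) without fructose library 1, and for Synpo2 (0.65), Csrp1 (-0.23) and Ppp1r14a (-0.68) without fructose library 2. Tpm2 was at 0.44 without fructose library 1 and still called. Myh11, the myosin heavy chain of smooth muscle, was at 14.4 and 16.1 CPM in control, and at 20.1 and 17.6 CPM in fructose, and was not called (0.31, edgeR adjusted p = 0.11). Aoc3, with the highest level of this list, was at 360.7 and 354.6 CPM in control, and at 339.2 and 327.4 CPM in fructose (-0.10, edgeR adjusted p = 0.37). Of 18 other pericyte genes, 2 were called higher (Abcc9 and Ebf1) and 2 lower (Art3, -0.41, and Cygb, -0.41), with a median of -0.11, and none of these was called with both trends removed. The call of Ebf1 (0.53) was lost without control library 2 (0.32) or fructose library 2 (0.41), that of Art3 without fructose library 1 (-0.32) and that of Cygb without fructose library 2 (-0.38). The pericyte gene with the highest level, the adhesion molecule Mcam, was at 190.1 and 190.9 CPM in control, and at 186 and 179 CPM in fructose (-0.06, edgeR adjusted p = 0.59). Over all 81 tested genes of the mural and pathway lists beside the 10, 15 were called higher and 5 lower, and with both trends removed 3 were higher (Tpm1, Tpm2 and Tead1) and 0 lower.

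Markers of the cells next to the mural cells gave the frame for these values. For the 12 endothelial markers, the median of the log2 fold changes was -0.11. Of these, 3 were called higher and 3 lower, beside 15.5% and 10.7% of all genes tested. The values ran from -0.51 for the tight junction gene Cldn5 to 0.75 for the transcription factor Erg. With both trends removed, 1 was called higher (Erg, 0.81) and 1 lower (Emcn, -0.50), beside 504 higher and 543 lower of all 12888 genes. Cldn5 was at -0.16 in that setting (edgeR adjusted p = 0.47). Cldn5 was at -0.33 and still called without control library 1. The summed level of the endothelial list was 1992 and 1959 CPM in control, and 1783 and 1880 CPM in fructose, and that of the 10 mural genes was 553.8 and 565.3 CPM in control, and 558.5 and 522.1 CPM in fructose. The ratio of Pdgfrb to the endothelial gene Pecam1 (both in RPKM) was 0.481 and 0.462 in control, and 0.532 and 0.512 in fructose. Pecam1 itself was not called (-0.21, edgeR adjusted p = 0.083). Of the endothelial markers, 4 had a positive and 8 a negative log2 fold change, so the direction of such a ratio depends on the gene chosen. With both trends removed, Pdgfrb was at -0.14 and Pecam1 at -0.19. The 10 brown adipocyte markers had a median of -0.13, with 1 called higher and 4 lower, beside 15.5% and 10.7% of all genes tested. DESeq2 called 0 higher and 4 lower. The edgeR calls of the 4 lower genes (Cidec, Adipoq, Lipe and Pnpla2) were lost without fructose library 1, and also without fructose library 2, although their log2 fold changes stayed negative. Once both trends were removed, the median was -0.009, with 1 higher (Elovl3) and 1 lower (Fabp4). It was -0.189 without fructose library 1 and -0.085 without fructose library 2. The 8 tested mural genes other than Rgs5 had log2 fold changes between -0.66 and 0.27, against 0.58 to 2.13 in the skeletal muscle list, whose lowest gene, Chrna1, was not called. This order did not hold once both trends were removed, where Des was at 0.44 and Chrna1 at 0.42.

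**Figure D4:**
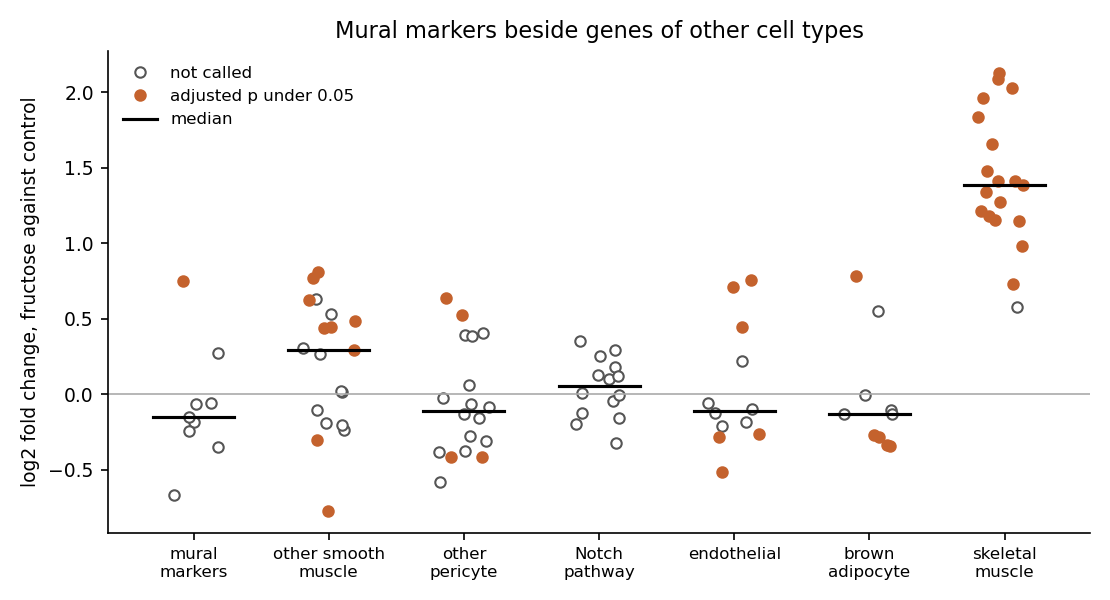
Log2 fold change, fructose against control, of each tested gene (points) in 7 gene lists, filled where edgeR's quasi-likelihood test called the gene at an adjusted threshold of 0.05, and a bar at the median of the list. The mural markers centre on -0.15 with Rgs5 above the rest, the other smooth muscle and pericyte genes spread on both sides of 0, and the skeletal muscle list centres on 1.39.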

How the data were processed

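The deposited values were raw counts per gene. Per the labels and the methods of the study, the authors cleaned the reads (fastp) and mapped these to mm10 with Bowtie2 (2.0.0.5) and TopHat2 (2.0.0), assembled transcripts with StringTie (2.2.0), merged them with Cuffmerge and extracted the count of each gene. The counting tool, its treatment of strand and of reads matching several genes, and the annotation are not given in the sources used here. The 4 tables of single libraries equalled the joint table. Symbols, positions, exon lengths and GC content came from GENCODE M21 (GRCm38), which lacked 43 of the 22298 identifiers.

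Libraries were grouped by the treatment in their labels. Genes kept by filterByExpr were tested with the quasi-likelihood test of edgeR 4.0.16 (R 4.3.3), two-sided, without covariates, with Benjamini-Hochberg adjustment over all 12888 genes, in place of the DESeq2 of the study. CPM used TMM-normalized totals, and RPKM divided CPM by the exon length. The alternatives were DESeq2 1.42.0, other scalings and filters, a block for the replicate number, the length or GC content trend of each library removed (lowess, span 0.3, as offsets) and each library left out, where the spread came from the group with 2 libraries. The tests were checked on simulated counts, and motifs were searched with Python 3.11.15. The 10 members and all lists were chosen with earlier results of these data known. Carmn was not found in the count table. Named genes were the 10 members, the extremes of the calls and the highest level in each list, and the partners of members, and not every gene so selected is described. Tpm1, Mylk and other calls listed with them, Myh11 and Heyl, the genes named for a call under 1 setting, the pairs set in ratio and the promoters shown were chosen after their values were seen.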

Additional observations from a re-analysis of the deposited data

How the results depend on the processing

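Among 15 alternatives, the number of the 10 genes called higher was 1 or 2 and the number called lower 0 to 3. It was 2 higher with library size as the only scaling and without a filter on low counts, and 3 lower (Cspg4, Notch3 and Pdgfrb) with the length trend removed. The replicate numbers showed no shared deviation between the groups (correlation of their deviations across genes -0.0266). This rests on 1 difference per group and cannot exclude a pairing. With the replicate number as a block, 2 were higher and 1 lower, since Des and Tagln passed (edgeR adjusted p = 0.042 each), and with both trends removed beside the block, 1 was higher and 1 lower (Cspg4). With each library left out in turn, 1 to 2 were higher and 0 to 2 lower. The median log2 fold change was 0.043 with the GC content trend removed, and -0.19 to -0.10 with each library left out. Directions turned for Notch3 with library size as the only scaling (0.004) and with the GC content trend removed (0.146), for Cspg4 (0.043) and Pdgfrb (0.059) with the GC content trend removed, and for Acta2 with 1 library left out (-0.409 without fructose library 1 to 0.026 without fructose library 2). The direction of Tagln, Cnn1, Des, Rgs5 and Kcnj8 was kept under all 15. Of the other mural and pathway genes, 15 were called higher and 5 lower. These counts became 6 higher with the length trend removed, 1 lower with the GC content trend removed, 3 higher and 0 lower with both removed, and 4 higher and 1 lower with the block as well, and ran from 10 to 17 higher and from 2 to 7 lower with each library left out. The cause of these shifts was not tested. Over all genes, 504 were higher and 543 lower with both trends removed, against 2001 and 1379, and the share of higher calls was 48.1% against 59.2%. It was 72.3% with library size as the only scaling, which moved the median of all genes to 0.06. Cnn1, at 42 and 64 control counts, was not called, whereas Pdgfd was called at 26 and 16. The log2 fold change of Pdgfd was larger in size (1.23 against -0.66), and whether depth limited Cnn1 was not tested.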

Other observations

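Signals of vessel maturation outside the PDGF and Notch pathways were tested as a list of 13 genes. Of these, edgeR (adjusted over all genes tested) called 3 higher in fructose and none lower, beside 15.5% and 10.7% of all genes. DESeq2 called 1 higher, and edgeR at an unadjusted p-value under 0.05 gave 4 higher and 1 lower. The median log2 fold change was 0.07. Angpt1, the angiopoietin that mural cells release to stabilize endothelium, had 71 and 49 counts in control and 128 and 191 counts in fructose (log2 fold change 1.06, standard error 0.24, edgeR adjusted p = 0.009). Its receptor Tek was not called (0.23, edgeR adjusted p = 0.13). Tgfbr1 was higher by 0.58 (edgeR adjusted p = 0.041) and Ednrb, the endothelin receptor B, by 0.41 (edgeR adjusted p = 0.023), whereas Ednra, the endothelin receptor of smooth muscle, was at 12.8 and 12.0 CPM in control and at 10.2 and 11.8 CPM in fructose and was not called. With both trends removed, none of the 13 genes was called, and Angpt1 was at 0.55 (edgeR adjusted p = 0.15). Without fructose library 2, the calls of Angpt1 (0.81), Tgfbr1 (0.60) and Ednrb (0.32) were lost, and that of Tgfbr1 also without control library 2 (0.39) or fructose library 1 (0.57).

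The fibroblast and preadipocyte markers, some of which mark cells that also carry Pdgfrb, held 12 tested genes, with a median of 0.09. At the adjusted threshold, 1 was called higher (Dpp4) and 0 lower, beside 15.5% and 10.7% of all genes tested. DESeq2 called none, and edgeR at an unadjusted p-value under 0.05 gave 3 higher and 1 lower. The adjusted counts turned to 0 higher and 1 lower (Dcn, -0.54, edgeR adjusted p = 0.0033) once both trends were removed, and Dpp4 was at 0.74 (edgeR adjusted p = 0.15). Col3a1, with the highest level of that list, was at 2272 and 1951 CPM in control, and at 2230 and 2284 CPM in fructose. Cartilage and bone markers were near 0, with Matn1, Bglap and Ibsp at 0 counts in all 4 libraries.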
